A study of Mus musculus with 32 samples.

Results

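Centrins, the centrosome protein gene Cspp1 and genes of intraflagellar transport (IFT) were followed in sorted fetal germ cells of the mouse: Cetn2, Cetn3, Cetn4, Cspp1, Ift20, Ift80 and Ift88. A probe was taken as a member when the annotation of the platform gave it exactly 1 gene symbol and that symbol was one of these 7. This found 21 probes, 14 of Cspp1, 2 of Cetn4 and 1 of each other gene, among 21789 probes and 19938 genes with a symbol of their own. The genes were selected on the differences between DEHP and oil in male cells of both generations, so the male comparisons with oil, which share those oil arrays, are given as values with no test of the members.

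RNA was measured on 32 Mouse Gene 1.0 ST arrays in 11 groups, each with 3 arrays except the G1R DEHP females with 2. All cells were EGFP-positive cells sorted at 17.5 dpc (days post coitum) from fetal gonads that carry the OG2 transgene, in which the Oct4 promoter drives EGFP. The labels call all of them primordial germ cells. The G1R cells, fetal oocytes and prospermatogonia of FVBxOG2 fetuses, were exposed in utero through dams gavaged daily from 12.5 dpc with bisphenol A (BPA, 0.2 mg/kg/day), bis(2-ethylhexyl) phthalate (DEHP, 750 mg/kg/day), vinclozolin (VZ, 100 mg/kg/day) or corn oil alone (vehicle control, 'oil'). The G2R cells were prospermatogonia of OG2xFVB fetuses of the next generation, not exposed themselves, from the DEHP, VZ and oil lines. The cross differs between the generations and the study's text says that they were run at different times, so generation, cross and run cannot be told apart. The labels do not say whether the arrays of a group came from separate animals or litters, so p-values measure only the spread between these samples. All values are log2 signals, on which a difference of 1 is a doubling of signal. Levels are set against each other only within a probe.

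Centrins are small calcium-binding proteins of the EF-hand family that sit in the centriole, the barrel at the core of the centrosome and the base from which a cilium grows. Cspp1 codes for a protein of the centrosome, the spindle poles and the ciliary axoneme. Ift20, Ift80 and Ift88 code for subunits of IFT-B, the complex that carries building material up a growing cilium, whereas IFT-A takes part in the return. Germ cells use centrosomes for the mitotic spindle, oocytes later lose their centrioles, and male germ cells build a flagellum only long after birth. A sorted sample is a bulk sample, in which fewer cells of a type and less RNA per cell cannot be told apart.

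The promoters of the 3 centrin members are shown because the sexes differed most for Cetn4, clearly for Cetn2 and hardly for Cetn3. RefSeq windows (GRCm38.p6) run from 250 bases before to 50 bases after the start and were matched for 5 of the 7 genes. Capitals mark GTTGCC (one arm of the X-box, the motif that RFX factors bind at ciliary genes) and CCAAT, each searched on both strands, so that GGCAAC and ATTGG are matches as well. The windows are chr3:37312397-37312696 on the minus strand for Cetn4, chrX:72918295-72918594 on the minus strand for Cetn2 and chr13:81782997-81783296 on the plus strand for Cetn3.
Cetn4: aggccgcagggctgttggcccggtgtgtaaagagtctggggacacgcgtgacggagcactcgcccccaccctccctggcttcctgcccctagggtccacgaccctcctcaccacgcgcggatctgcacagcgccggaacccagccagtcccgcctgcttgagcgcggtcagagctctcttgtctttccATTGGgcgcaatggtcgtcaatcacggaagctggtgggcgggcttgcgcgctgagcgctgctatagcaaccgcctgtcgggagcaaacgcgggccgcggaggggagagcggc
Cetn2: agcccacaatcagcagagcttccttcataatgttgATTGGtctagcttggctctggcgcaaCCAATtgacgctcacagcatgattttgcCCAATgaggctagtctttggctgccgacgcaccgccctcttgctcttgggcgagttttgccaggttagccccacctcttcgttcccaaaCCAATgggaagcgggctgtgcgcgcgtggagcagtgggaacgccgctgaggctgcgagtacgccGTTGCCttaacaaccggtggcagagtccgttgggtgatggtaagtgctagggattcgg
Cetn3: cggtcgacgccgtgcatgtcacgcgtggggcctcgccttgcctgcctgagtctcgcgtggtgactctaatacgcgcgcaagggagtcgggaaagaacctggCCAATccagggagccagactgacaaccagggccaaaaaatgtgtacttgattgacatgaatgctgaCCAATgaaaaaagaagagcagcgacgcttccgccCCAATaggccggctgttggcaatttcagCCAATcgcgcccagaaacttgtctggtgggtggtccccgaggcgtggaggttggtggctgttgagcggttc

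The Cetn4 window held 1 CCAAT and no GTTGCC. The Cetn2 window held 4 CCAAT and 1 GTTGCC, which begins 8 bases before the start. The Cetn3 window held 4 CCAAT and no GTTGCC. This window lies inside the gene record and does not cover its first base, which was not searched. Ift88 had 1 match of each, and the Ift20 window held neither motif. Among 32544 RefSeq promoter windows of the same length, 12.4% held GTTGCC and 37.4% held CCAAT. A full X-box was searched in 1 relaxed spelling only, GTTNCC and GNAAC with 3 bases of any kind between them. This spelling was in 0.811% of all windows and in none of the 5. Looser spellings were not searched, so a full X-box is not shown to be absent. TATAAA was in 13.6% of all windows and in none of the 5. These matches describe the windows only. Cetn4 and Bbs12, a gene of the chaperonin-like complex that assembles the BBSome, face away from each other, and their windows share 207 bases.

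Fetal oocytes carried more RNA of 6 of the 7 genes than prospermatogonia, and Cetn3 was the exception. In oil, 19 of the 21 probes were higher in females and none was lower (adjusted p under 0.05, limma with Benjamini-Hochberg adjustment over 35556 probes). Over all probes, 28.7% were higher and 25.6% were lower in the same comparison. For the same 19 probes each female array lay above each male array, as for 31.4% of all probes. The median difference of the 21 probes was 1.00, beside a median of 0.05 over all probes. Of the 21 probes 14 are of Cspp1. Over the 7 genes, each as the mean of its probes, the median was 1.44.

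**Figure D1:**
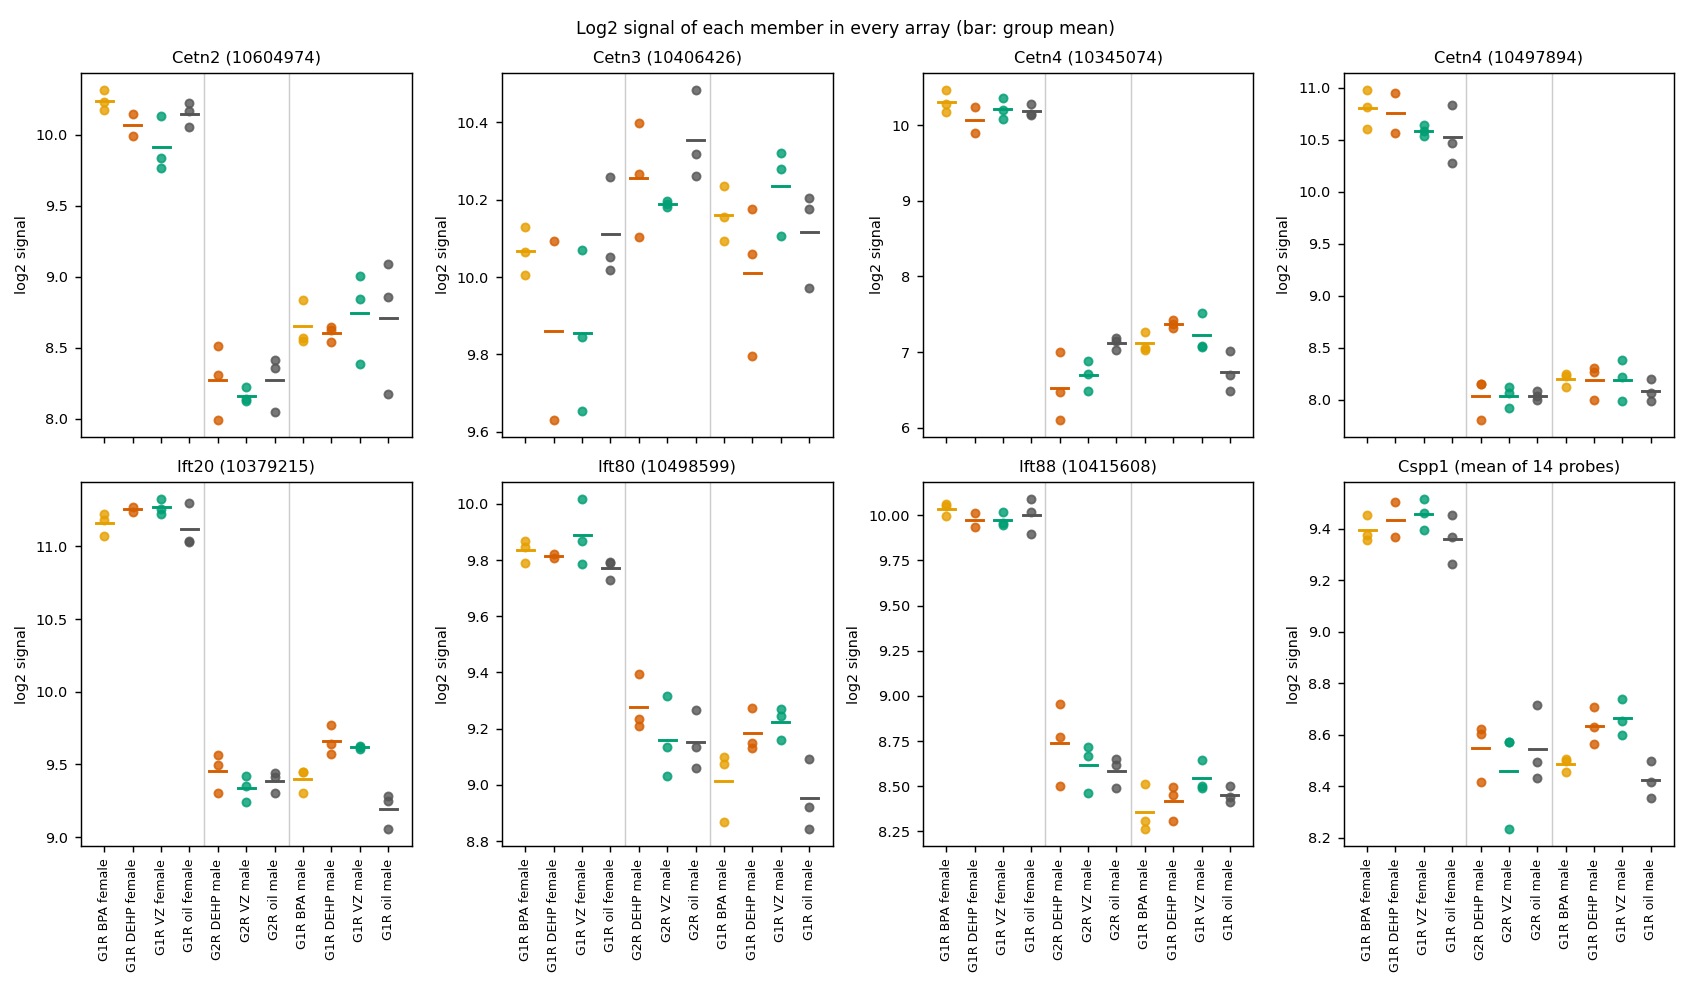
Log2 signal (vertical axis, a scale of its own in each panel) of each array in the 11 groups for Cetn2, Cetn3, the 2 Cetn4 probes, Ift20, Ift80, Ift88 and the mean of the 14 Cspp1 probes. Points are arrays and bars are group means; female groups stand apart above all male groups in every panel except that of Cetn3.

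Cetn4 showed the widest gap. Its probe 10345074 read 10.29, 10.13 and 10.15 in oil females, against 6.69, 6.49 and 7.02 in oil males. The groups lay far apart, with a difference of 3.46 (SE 0.17, an 11-fold signal, adjusted p = 4.17e-15). The other Cetn4 probe, 10497894, read 10.83, 10.47 and 10.28 in oil females, against 8.20, 7.99 and 8.06 in oil males, a difference of 2.45 (SE 0.13, 5.45-fold, adjusted p = 3.18e-14). Both probes were high in every female array and low in every male array of the series. Over the 11 female arrays probe 10345074 ran from 9.89 to 10.47, against 6.10 to 7.52 over all male arrays. Several male arrays lay below 6.7, the mean log2 signal under which probes were taken as dim, so the male levels of this probe are near the dim end.

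Probe 10345074 needs care. Probe numbers on this platform follow the chromosomes: for 96.8% of 21678 single-gene probes, the commonest chromosome among the 20 nearest such probes was their own. Cetn4 lies on chromosome 3, and 19 of the 20 probes nearest to 10497894 are on it. Of the 19 nearest probes of 10345074 with a known chromosome, 17 are on chromosome 1. The annotation names Cetn4 for both, and which transcript 10345074 reads was not tested.

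Cetn2, which codes for a centrin also found in the nucleotide excision repair complex with Xpc, lies on the X chromosome. It read 10.23, 10.17 and 10.05 in oil females, against 8.17, 9.09 and 8.86 in oil males. All female arrays were higher, although the males were spread over almost a unit, and the difference was 1.44 (SE 0.18, adjusted p = 9.32e-08). Cetn3 codes for the relative of the yeast spindle pole body protein Cdc31. It read 10.26, 10.02 and 10.05 in oil females, against 9.97, 10.18 and 10.20 in oil males. These groups overlapped, and the difference of -0.01 had a 95% confidence interval of -0.25 to 0.24 (adjusted p = 0.967).

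The IFT-B members were higher in every female array than in any male array. Ift20, whose protein also sits at the Golgi and is the subunit that carries membrane proteins toward the cilium, read 11.30, 11.03 and 11.03 in oil females, against 9.05, 9.25 and 9.28 in oil males. The difference was 1.93 (SE 0.09, 3.80-fold, adjusted p = 6.41e-16). Ift88, without which cells of the mouse fail to build cilia, read 9.89, 10.09 and 10.02 in oil females, against 8.42, 8.50 and 8.44 in oil males. The 2 groups were each tight, and the difference was 1.55 (SE 0.10, adjusted p = 2.95e-13). Ift80 read 9.79, 9.73 and 9.79 in oil females, against 8.92, 9.09 and 8.84 in oil males, the smallest of the 3 differences at 0.82 (SE 0.09, adjusted p = 8.85e-09).

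**Figure D2:**
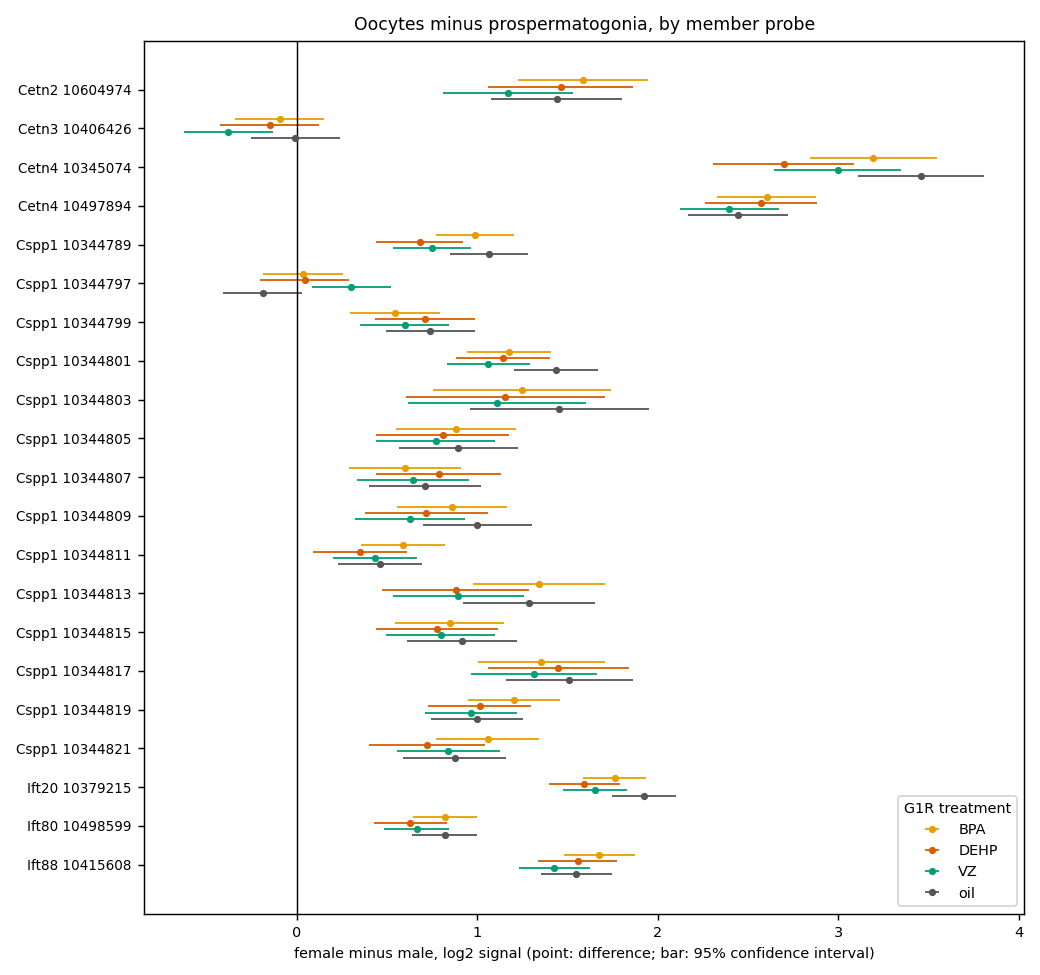
Difference between oocytes and prospermatogonia (horizontal axis, log2 signal, positive where females are higher) for each of the 21 probes after BPA, DEHP, VZ and in oil in G1R cells, with 95% confidence intervals as bars. Cetn4 lies furthest to the right, Cetn3 and Cspp1 probe 10344797 lie near 0, and the 4 treatments lie close together for most probes.

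Cspp1 was read by 14 probes, which share a gene and are no replicates of it. In oil, 13 of the 14 were higher in females, with differences from 0.46 (probe 10344811) to 1.51 (probe 10344817) and a median over all 14 of 0.96. The exception was probe 10344797, which read 8.37, 8.71 and 8.64 in oil females, against 8.85, 8.83 and 8.61 in oil males. These overlapped, with a difference of -0.19 (SE 0.11, adjusted p = 0.141). The mean over the 14 probes was 9.36 ± 0.10 in oil females and 8.42 ± 0.07 in oil males (SD, n = 3 each).

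**Figure D3:**
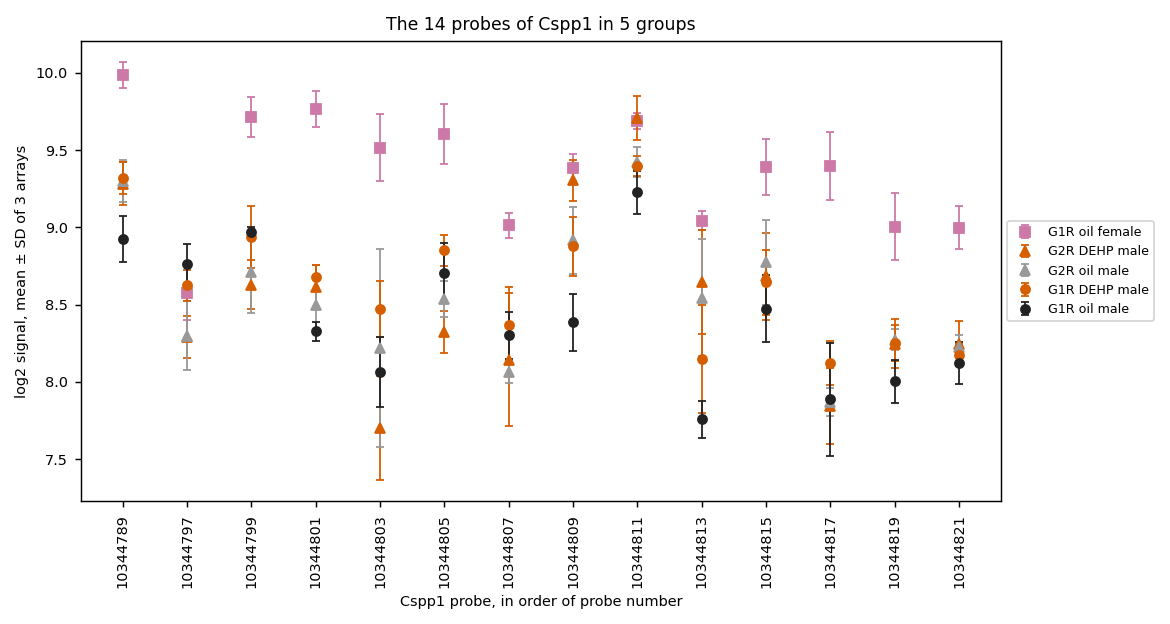
Log2 signal (vertical axis, mean and SD of 3 arrays) of the 14 Cspp1 probes, in order of probe number, in oil females and in DEHP and oil males of the G2R and G1R generations. Each probe is to be read on its own. Oil females are the highest of the 5 groups for most probes but not for 10344797 and 10344811. Oil males of G2R and G1R part most at probe 10344813.

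Across the series each member kept its own range. Ift20 ran from 11.03 through a median of 11.23 to 11.33 over the 11 female arrays, against 9.24, 9.42 and 9.57 over the 9 G2R male arrays and 9.05, 9.51 and 9.77 over the 12 G1R male arrays. Ift88 ran from 9.89 through 10.01 to 10.09 in females, against 8.46, 8.65 and 8.95 in G2R males and 8.26, 8.47 and 8.64 in G1R males. Cetn2 ran from 9.76 through 10.14 to 10.32 in females, against 7.99, 8.22 and 8.52 in G2R males and 8.17, 8.64 and 9.09 in G1R males. The 2 male generations overlapped for each of these genes, and the females stood clear of both. Cetn3 ran from 9.63 through 10.05 to 10.26 in females, against 10.10, 10.26 and 10.48 in G2R males and 9.80, 10.17 and 10.32 in G1R males, and all 3 ranges overlapped.

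The sex difference was there after each ED as well. After BPA, 19 of the 21 probes were higher and none was lower in females, with 30.6% of all probes higher and 25.1% lower. After DEHP the counts were also 19 and 0, with 28.5% of all probes higher and 23.6% lower. After VZ it was 20, with 31% of all probes higher, and Cetn3 was the one lower probe, beside 24.5% of all probes that were lower. After BPA and after DEHP, as in oil, the 2 probes that missed the test were Cetn3 and Cspp1 10344797. In VZ cells Cetn3 read 9.66, 10.07 and 9.84 in females, against 10.32, 10.11 and 10.28 in males. Each female array lay below each male array, with a difference of -0.38 (SE 0.12, adjusted p = 0.00908). Without the first VZ female the difference was -0.28 and did not pass (adjusted p = 0.0734). In cyclic loess scaling Cetn3 also passed as lower in females after BPA (-0.32, adjusted p = 0.0211) and after DEHP (-0.35, adjusted p = 0.0269). Whether the sex difference of a probe differed between treatments was not tested. The males in the oil and DEHP sex differences also served to choose the genes. The sizes of these differences, and how oil compares with DEHP, are thus not independent of that choice.

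Across the 4 treatments, the difference for Cetn4 probe 10345074 was 3.20 after BPA, 2.70 after DEHP, 3.00 after VZ and 3.46 in oil. For Ift20 it was 1.76 after BPA, 1.59 after DEHP, 1.65 after VZ and 1.93 in oil. For Ift88 it was 1.68 after BPA, 1.56 after DEHP, 1.43 after VZ and 1.55 in oil. The confidence intervals of neighbouring treatments overlapped for each of these probes. Such overlap does not decide whether treatments differ, and the order of the treatments was not tested.

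Other genes of the cilium and the centrosome did not share 1 direction. Over all probes, 28.7% were higher and 25.6% lower in oil females. Of the 17 measured IFT-B genes, which include the 3 members, 14 were higher in oil females and 3 lower, with a list median of 1.09. Ift52 (3.07, SE 0.12, adjusted p = 1.03e-16) and Ift22 (2.19, SE 0.08, adjusted p = 2e-17), which code for further subunits, exceeded Ift20. The 3 that fell were Ift46 (-0.46), Ift172 (-0.38) and Ift74 (-0.29). Of the 7 IFT-A genes, 3 were higher and 3 lower in oil females, among them Ift140 (-1.18, adjusted p = 2.26e-10) and Ttc21b (-1.10, adjusted p = 1.96e-09). For the motors that pull the trains, 9 of 11 genes were higher and 2 lower, with Kifap3, the accessory subunit of kinesin-2, at 1.93. For the BBSome, the cargo adaptor of these trains, and its assembly genes, 10 of 11 were higher and none lower, with Bbs2 at 1.09 and Mkks at 1.18. Among 9 centrins and centrin partners 4 were higher, including Eny2 (1.83), which codes for a subunit of the TREX-2 complex that holds centrins. Cetn1 differed by 0.01 with an adjusted p of 0.944.

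Around the centriole, 10 of 15 duplication genes were higher and 2 lower, with Plk4, the kinase that starts centriole duplication, at 1.66. Among pericentriolar genes 10 of 16 were higher and 4 lower, with Ofd1 at 2.31 and Akap9 at 1.93. Linker and appendage genes were split, with 5 of 12 higher and 4 lower (over all probes 28.7% and 25.6%), and Nin at -1.31. So were the 17 transition zone and Joubert syndrome genes, a list that holds Cspp1 itself, with 8 higher and 7 lower, Tmem231 at 2.63 and Ahi1 at -2.31. Of 9 ciliary transcription factor genes, 3 were higher and 5 lower: Ccno, a cyclin-like regulator of multiciliated cells, was at 3.87, Rfx2 at 1.01 and Rfx1 at -0.85.

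Motile axoneme genes went the other way: 11 of 14 were lower in oil females and 1 was higher, with a median of -0.92. Of all probes 25.6% were lower. Rsph4a (-2.68) and Rsph1 (-2.04), which code for radial spoke proteins, and Hydin (-2.09), which codes for a central pair protein, led the list. The mean log2 signal of the 14 genes ran from 6.92 to 7.09 in oil females, against 7.94 to 8.04 in oil males. In cyclic loess scaling the counts of the IFT-A list were 2 higher and 4 lower, of the transition zone list 5 higher and 6 lower, and of the motile list 1 higher and 10 lower.

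**Figure D4:**
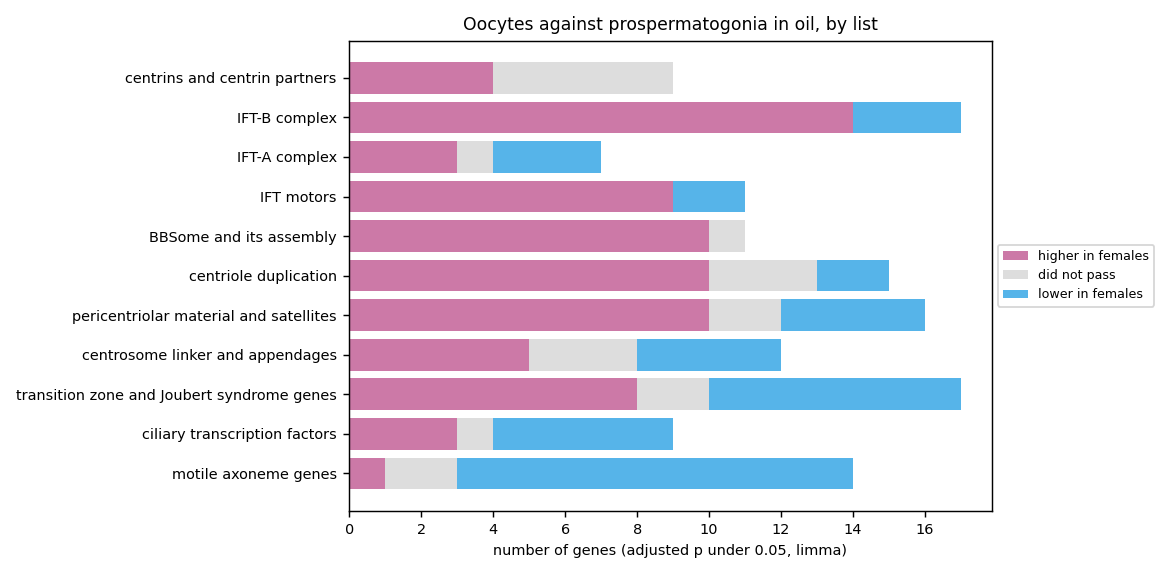
Number of measured genes (horizontal axis) of each list of cilium and centrosome genes that were higher, did not pass, or were lower in oil oocytes than in oil prospermatogonia (adjusted p under 0.05, limma). IFT-B, motor and BBSome genes are mostly higher in females, and 11 of 14 motile axoneme genes are lower. Over all probes 28.7% were higher and 25.6% lower.

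Markers of the labelled cells mostly, but not all, followed the labels, where 28.7% of all probes were higher and 25.6% lower in oil females. Lhx8 (4.01), Nobox (3.59) and Figla (3.47), which code for transcription factors of the oocyte, exceeded the male level in oil females. Of 8 oocyte genes 6 were higher and 1 was lower, Zp3, which codes for a protein of the zona pellucida (-2.08). Of 6 prospermatogonia genes 3 were lower in oil females, Dnmt3l (-5.72), Utf1 (-5.37) and Piwil4 (-3.71), and 2 were higher, Mov10l1 (0.54) and Tdrd9 (0.28). Some markers of gonadal somatic cells differed as well. Of 10 Sertoli cell genes, 4 were lower in oil females and none higher, with a mean signal of 7.17 to 7.27 in oil females and 7.49 to 8.01 in oil males. Of 6 fetal Leydig cell genes, 3 were lower in oil females, and of 6 endothelial genes all 6. Granulosa and ovarian stroma genes went both ways: Nr0b1 (0.99) was higher, while Fst (-1.30) and Irx3 (-0.26) were lower. Among blood and macrophage genes, Alas2 (-1.67) and Cd68 (-0.76) were lower. The part of these cells in the sex differences above was not tested.

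Genes that neighbour the members were also higher in oil females in most cases, where 28.7% of all probes were higher. Nsdhl, next to Cetn2, differed by 0.44 (SE 0.12, adjusted p = 0.00338). Tmem97, next to Ift20, differed by 1.27 (probe 10388880) and 1.26 (probe 10434668). The number 10434668 lies far from 10388880, and which transcript this probe reads was not tested. Smc4, next to Ift80 and a subunit of condensin, differed by 1.34 (SE 0.09, adjusted p = 9.1e-13), Cops5, next to Cspp1, by 1.03 (SE 0.13, adjusted p = 2.63e-07) and Tnfaip1, next to Ift20, by 0.73 (SE 0.08, adjusted p = 2.01e-08). Bbs12, with which Cetn4 shares promoter sequence, differed by 0.44 (SE 0.12, adjusted p = 0.00389), less than either Cetn4 probe. Arfgef1, on the other side of Cspp1, did not pass (-0.11, adjusted p = 0.224).

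In BPA, DEHP and VZ oocytes, 0 of the 21 probes passed the test against oil, as did 0 of all 35556 probes (0%) in each comparison. At an unadjusted p under 0.05, 1622 probes passed for BPA (4.56%), 2234 for DEHP (6.28%) and 2118 for VZ (5.96%), and among the members 0 passed for BPA, 0 for DEHP and 1 for VZ, Cetn3 (-0.25). For DEHP, Ift20 read 11.27 and 11.24 in DEHP females, against 11.30, 11.03 and 11.03 in oil females. The difference of 0.13 had a 95% confidence interval of -0.06 to 0.33. Cetn4 probe 10345074 read 9.89 and 10.25 in DEHP females, against 10.29, 10.13 and 10.15 in oil females, with an interval of -0.51 to 0.27 around -0.12. Over the 21 probes the differences ran from -0.25 (Cetn3) to 0.26 (Cspp1 10344819) in DEHP females, with a median of 0.06 and adjusted p-values of 0.838 or more. They ran from -0.17 to 0.28 in BPA females and from -0.25 to 0.27 in VZ females. In DEHP females 2 probes lay wholly above oil, Cspp1 10344809 (0.21) and Ift80 (0.04), where 11.2% of all probes did so. In VZ females Cspp1 10344789 (0.12) lay wholly above oil, where 5.75% of all probes did so, and in BPA females no member did, where 4.32% of all probes did so. An exact permutation test of 2 arrays against 3 could not give a two-sided p below 0.2.

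In G1R males, given as values with no test, the DEHP arrays lay above oil arrays for 6 probes of 4 genes. Over all probes 9.81% did so, and since these arrays served to choose the genes nothing is read from this count. Ift20 read 9.64, 9.57 and 9.77 in DEHP males, against 9.05, 9.25 and 9.28 in oil males, a difference of 0.47 (SE 0.09). Its lowest DEHP array was above its highest oil array. Ift80 read 9.15, 9.13 and 9.27 in DEHP males, against 8.92, 9.09 and 8.84 in oil males, a difference of 0.23 (SE 0.09). Its closest arrays of the 2 groups almost touched. Cetn4 probe 10345074 read 7.31, 7.38 and 7.43 in DEHP males, against 6.69, 6.49 and 7.02 in oil males, a difference of 0.64 (SE 0.17).

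The second Cetn4 probe did not show this. Probe 10497894 read 8.26, 7.99 and 8.30 in DEHP males, against 8.20, 7.99 and 8.06 in oil males, a difference of 0.10 (SE 0.13) with overlapping groups. Of the Cspp1 probes, 10344809 (0.49), 10344789 (0.40) and 10344801 (0.35) lay wholly above oil. For this gene 12 of the 14 differences were above 0, beside 16767 of all 35556 probes, and their median was 0.20. Nothing is read from this count either, since these arrays served to choose the gene and the 14 probes share it. Over all 35556 probes, 2 passed the test in this comparison (0.00562%).

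For Cetn2, Cetn3 and Ift88 the G1R DEHP arrays overlapped with oil. Cetn2 read 8.63, 8.65 and 8.54 in DEHP males, against 8.17, 9.09 and 8.86 in oil males, a difference of -0.10 (SE 0.18). The DEHP arrays sat within the wide span of the oil arrays. Cetn3 read 10.06, 9.80 and 10.18 in DEHP males, against 9.97, 10.18 and 10.20 in oil males, a difference of -0.11 (SE 0.12). Ift88 read 8.49, 8.31 and 8.45 in DEHP males, against 8.42, 8.50 and 8.44 in oil males, a difference of -0.03 (SE 0.10). The Cspp1 probes that did not lie wholly above oil ranged in their differences down to -0.14 (probe 10344797). With each array left out in turn the differences ran from 0.40 to 0.51 for Ift20 and from 0.52 to 0.78 for Cetn4 probe 10345074.

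**Figure D5:**
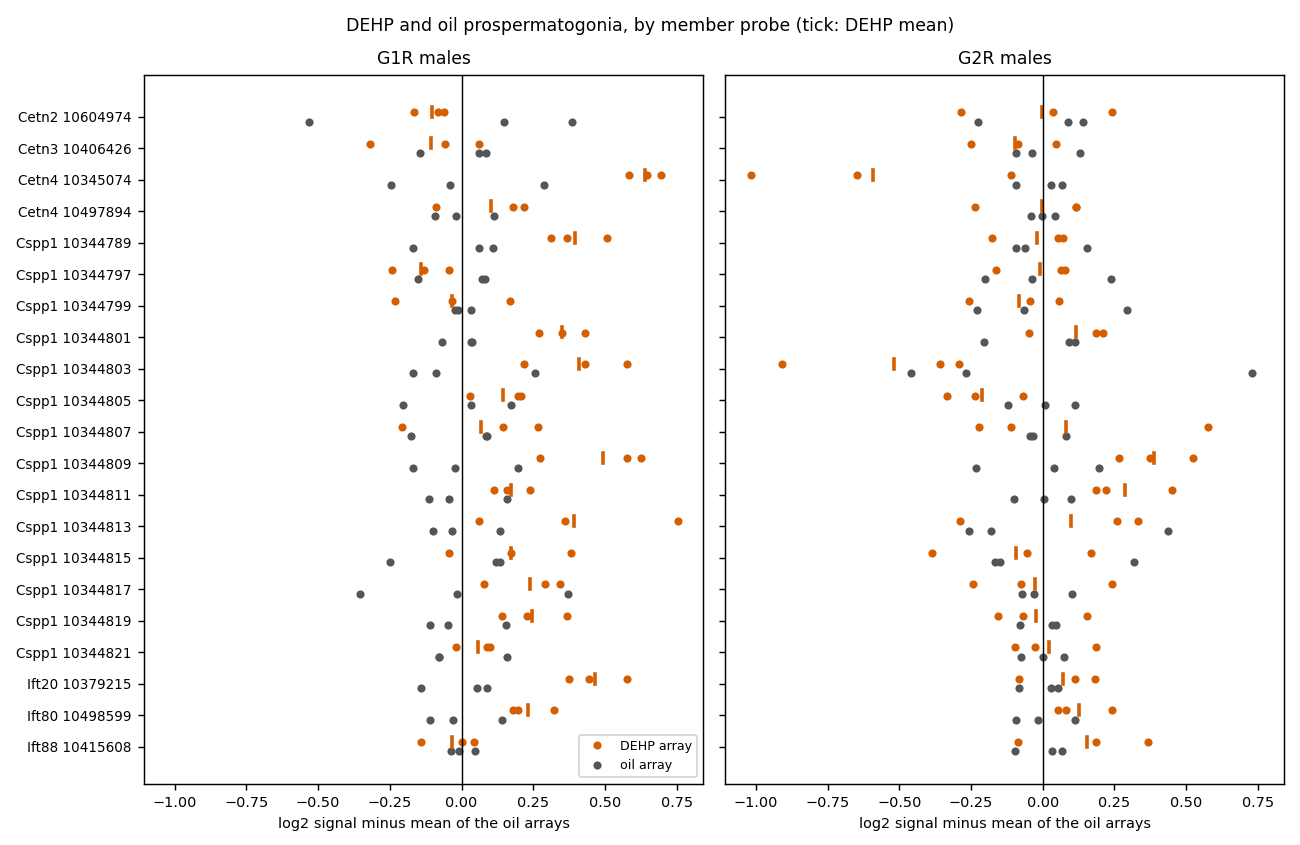
Log2 signal of DEHP and oil arrays of each of the 21 probes, less the mean of the oil arrays of the same generation (horizontal axis), in G1R males (left) and G2R males (right). Points are arrays and ticks mark DEHP means; Ift20 and Cetn4 10345074 are right of their oil arrays in G1R, while in G2R Cetn4 10345074 is left of them and Ift20 overlaps with oil.

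In G2R males, whose cells were not exposed, the 7 gene differences between DEHP and oil went both ways, with a median of 0.00, or 0.14 without the third DEHP array. In G1R males their median was 0.21. Ift20 read 9.57, 9.50 and 9.30 in G2R DEHP males, against 9.44, 9.42 and 9.31 in G2R oil males, a difference of 0.07 (SE 0.09) with overlapping groups. Its G2R arrays were thus not separated by line. Ift88 read 8.95, 8.77 and 8.50 in G2R DEHP males, against 8.62, 8.49 and 8.65 in G2R oil males, a difference of 0.16 (SE 0.10). Ift80 read 9.39, 9.23 and 9.21 in G2R DEHP males, against 9.06, 9.27 and 9.14 in G2R oil males, a difference of 0.12 (SE 0.09). In both genes the highest DEHP array exceeded all oil arrays while the lowest did not. Cetn2 differed by 0.00 and Cetn3 by -0.10, both with overlap.

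Cspp1 probe 10344809 was the one probe that lay wholly above oil in both generations. It read 9.18, 9.29 and 9.44 in G2R DEHP males, against 8.68, 9.11 and 8.95 in G2R oil males, a difference of 0.39 (SE 0.15). In G1R males it read 8.66, 8.96 and 9.01 after DEHP, against 8.36, 8.58 and 8.21 in oil, a difference of 0.49 (SE 0.15). The other 13 probes of the gene did not share this: in G2R only 10344811 (0.29) also lay wholly above oil, where 5.02% of all probes did so, and the mean over the 14 probes was 8.55 ± 0.11 in DEHP males and 8.55 ± 0.15 in oil males (SD, n = 3 each).

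Cetn4 probe 10345074 had the opposite sign in G2R. It read 6.10, 7.01 and 6.47 in G2R DEHP males, against 7.18, 7.02 and 7.15 in G2R oil males, a difference of -0.59 (SE 0.17), and was the one member wholly below oil, where 4.67% of all probes were. The second DEHP array and the second oil array were nearly level, and with each array left out in turn the difference ran from -0.83 to -0.38. Probe 10497894 differed by 0.00 in the same arrays. Over all probes, 0 passed the test in this comparison (0%), with 2456 (6.91%) at an unadjusted p under 0.05.

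The VZ and BPA males share their oil arrays with the DEHP comparisons, and are given as values for the same reason. In G1R VZ males 20 of the 21 differences were above 0, beside 17001 of all 35556 probes. Of the 21 probes 14 are of Cspp1, and 10 lay wholly above oil, beside 12.7% of all probes. Since the oil arrays served to choose the genes, nothing is read from these counts. Cetn4 10345074 differed by 0.49, Ift20 by 0.42 and Ift80 by 0.27, and Cspp1 10344797 lay wholly below oil (-0.42), as 14.8% of all probes did. Ift20 read 9.60, 9.62 and 9.63 in these males, 3 arrays within 0.03 of each other. In G2R VZ males Cetn4 10345074 (-0.42) and Cetn3 (-0.17) lay wholly below oil, beside 5.33% of all probes. In G1R BPA males 3 probes lay wholly above oil, Cetn4 10345074 (0.38), Ift20 (0.20) and Cspp1 10344801 (0.16), beside 5.47% of all probes. Somatic markers were higher in the same BPA arrays, with a median of 0.54 for Sertoli cell genes, 0.79 for fetal Leydig cell genes and 0.60 for peritubular genes, beside -0.02 over all probes. The mean signal of the Sertoli cell genes ran from 7.72 to 9.11 in BPA males, against 7.49 to 8.01 in oil males, and that of the Leydig cell genes from 6.96 to 8.82 in BPA males, against 6.84 to 7.43 in oil males. In VZ males the Sertoli cell genes had a median of 0.20 in G2R and 0.18 in G1R, and the Leydig cell genes of 0.03 in G2R and -0.03 in G1R. Their part in the members' values was not tested.

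The oil males of the 2 generations are also compared as values, with no test of the members. Of the 21 probes, 8 lay wholly higher in G2R than in G1R oil males, beside 14.3% of all probes, and Cspp1 10344797 (-0.46) lay wholly lower, beside 18.3%. Cetn4 10345074 read 7.18, 7.02 and 7.15 in G2R oil males, against 6.69, 6.49 and 7.02 in G1R oil males. Thus the G2R DEHP arrays of this probe, at 6.10 to 7.01, spanned most of the range of the G1R oil arrays. Cspp1 10344813 differed by 0.79 and 10344809 by 0.53 between the oil groups. These arrays are the controls of both DEHP comparisons and so served to choose the genes. Nothing is read from these counts.

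The cilium and centrosome lists, which hold the members too, are given for DEHP males as medians. In G2R males the IFT-B list had a median of -0.08 and the BBSome list of 0.03, beside 0.01 over all probes, with Cluap1, an IFT-B subunit, at -0.33. In G1R males the median of the IFT-B list was 0.09 and that of the BBSome list 0.11, beside -0.01 over all probes, with Cluap1 at 0.35 and Bbs4 at 0.38. Markers of fetal Leydig cells had a median of 0.43 in G2R DEHP males against oil, and their mean signal ran from 7.17 to 8.69 in DEHP males and from 6.63 to 7.86 in oil males. In G1R males the same markers had a median of -0.01. Sertoli cell markers had medians of 0.09 in G2R and -0.05 in G1R DEHP males. The part of these cells in the values of the members was not tested.

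The members did not move as 1 block over the 21 male arrays once the mean of each generation was removed. Among the 91 pairs of Cspp1 probes Pearson's r ran from -0.57 to 0.82, with a median of 0.33. The 2 Cetn4 probes had r = 0.36 with each other. The probes most like Cetn4 10345074 were those of Papss2 (0.88), Arhgdib (0.87) and Deup1 (0.87). Those most like Ift20 were of Trim23 (0.91), Epc2 (0.90) and Ahctf1 (0.86), and those most like Ift80 of Insig2 (0.89), Mfn1 (0.88) and Cep192 (0.88). For Ift88 the likest was Usp40 (0.82), for Cetn2 Ppia (0.79) and for Cetn3 Ube2l3 (0.79). These are descriptions over arrays that share treatments, and the likest probes were sought among all single-gene probes.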

How the data were processed

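Values of 35556 probes were deposited on the log2 scale, after the authors' RMA normalization (background correction, quantile normalization and summary per probe set) in Partek. Signals ran from 2.59 to 14.82 and array medians from 7.29 to 7.50. No 2 arrays were identical (highest correlation 0.993). The number of arrays limits the precision. The deposited values were used as they were, with no array left out. A mean per group was fitted to all 32 arrays with limma 3.58.1 in R 4.3.3 (21 residual and 3.67 prior degrees of freedom), tested first on simulated data, with Benjamini-Hochberg adjustment over all probes and a threshold of 0.05. Members and lists were chosen with earlier results of these data known. The members' values in ED and oil males and between generations were described without a test. Lists used the brightest probe of a gene by its mean over all arrays. Named from a list were up to 3 genes with the smallest p between the sexes in oil and up to 3 with the largest differences in DEHP males. Ift46, Ift172, Ift74, Cetn1, Zp3, Mov10l1 and Tdrd9 were named after their values were seen. Likeness was ranked by Pearson's r, 3 probes a member. Alternatives were an unmoderated contrast, dim probes left out, single-gene probes only, cyclic loess, array weights, a replicate block, only the arrays compared, and each array left out in turn. Plots were made in Python 3.11.15 (matplotlib 3.10.9).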

Additional observations from a re-analysis of the deposited data

Results flagged for a closer look

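Cetn4 probe 10345074 stood out because its ED arrays lay on opposite sides of oil in the 2 generations. Each of the 3 DEHP arrays was below each oil array in G2R males (-0.59 on the log2 scale) and above each oil array in G1R males (0.64). The VZ arrays did the same, with -0.42 in G2R males and 0.49 in G1R males, against the same oil arrays. The difference between the generations was not tested, because the gene was chosen on these comparisons. The other Cetn4 probe differed between DEHP and oil by 0.00 in G2R males and by 0.10 in G1R males. By their number, most neighbours of probe 10345074 on the platform are on chromosome 1, whereas Cetn4 is on chromosome 3.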

How the results depend on the processing

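The number of member probes higher in females was 18 to 20 in each treatment in all other fits. With each array left out in turn it was 19 to 19 in oil, 19 to 19 after BPA, 18 to 19 after DEHP and 19 to 20 after VZ. In oocytes against oil 0 member probes passed in all fits. The median difference of the 7 genes against oil, with each array left out, ran from 0.03 to 0.13 for BPA, from 0.17 to 0.25 for DEHP and from 0.20 to 0.27 for VZ in G1R males, from -0.027 to 0.138 for DEHP and from -0.14 to 0.00 for VZ in G2R males, and from 0.12 to 0.18 between the oil generations. Over the sex differences of single probes and all alternatives, a call was lost 11 times and gained 4 times, and the side of the threshold was unchanged in 1056 cases. Cspp1 10344811 was lost in cyclic loess in oil (0.21, adjusted p = 0.16), after DEHP (0.11, adjusted p = 0.55) and after VZ (0.21, adjusted p = 0.164). It was also lost after DEHP without the first DEHP male or either DEHP female (adjusted p = 0.0553 to 0.132). Cspp1 10344797 became lower in oil females in cyclic loess (-0.36, adjusted p = 0.00476), and its call after VZ was lost in cyclic loess (0.12) and without the second VZ male or the second VZ female. Cspp1 10344799 was lost after BPA in cyclic loess (adjusted p = 0.0723). Cetn3 passed as lower after DEHP without the second DEHP female (-0.38, adjusted p = 0.0484). The cause was not tested. Cyclic loess moved the median of all probes by at most 0.1 in any comparison.

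Over all probes and with all arrays or those compared, calls against oil ran from 0 to 99 for DEHP, from 1 to 1804 for VZ (most with array weights) and from 0 to 6 for BPA in G1R males, from 0 to 2 for DEHP in oocytes, from 0 to 1 for VZ in G2R males and from 0 to 0 for DEHP in G2R males. With each array left out they reached 49 for DEHP (without the first DEHP male), 19 for VZ (without the second oil male) and 403 for BPA (without the third BPA male) in G1R males. They reached 19 for DEHP (without the second DEHP male) and 5 for VZ (without the first VZ male) in G2R males, and in oocytes 3 for BPA (without the second BPA female), 4 for DEHP (without the second DEHP female) and 0 for VZ. The lowest count was 0 in each of these comparisons. Between the oil generations 3664 probes passed, 5520 with array weights, 586 with only the arrays compared and 1461 to 3262 with each array left out. The main fit did not pair samples by replicate number, since in no comparison did all pairs of deviations correlate above 0.1. Single pairs reached 0.13 (VZ and oil, G2R males). With so few arrays this check cannot show that samples of the same number were unrelated. With a replicate block the counts of higher member probes stayed at 19, 19, 19 and 20. Between the oil generations this block fit set the levels of replicate 1 against each other, not the group means. Its 1870 calls and median of 0.23 there are thus not comparable with the main fit.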
